A study of Sus scrofa with 105 samples.

Results

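The miRNAs of the hippocampus and amygdala of injured piglets were compared between 1 week and 1 day after diffuse traumatic brain injury. The 25 libraries were taken from the 105 of the series by their labelled region and group, 15 from animals at 1 week (survival of 6 to 8 days) and 10 from animals at 1 day, and each mature miRNA name was kept once, as its entry with the highest total. All were female pigs (Sus scrofa), injured and labelled untreated, and the tissue was fixed and embedded in paraffin. The same region also gave 18 libraries of sham or naive animals (survival of 0 to 8 days). A further 10 came from injured animals given cyclosporine A, an immunosuppressant that inhibits calcineurin, into a vein. The dose was 20 mg/kg per day, begun 6 hours after injury and infused for 24 hours, and these animals survived 30 hours. Both of these groups entered the fit, so they shared in the estimate of spread. The labels give neither ages nor what limits the injury as a model. The hippocampus and amygdala were labelled as 1 sample, so the structures cannot be told apart.

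miRNAs are short RNAs that, loaded into Argonaute proteins, pair through their seed with sites in messenger RNAs and lower the stability or translation of those targets. Each is cut from a hairpin that can leave a product from its 5′ arm and one from its 3′ arm, and hairpins that lie close together are often transcribed as one precursor. Some miRNAs mark cell types: miR-124 and miR-9 neurons, miR-219 and miR-338 oligodendrocytes, miR-126 endothelium, miR-142 and miR-223 leukocytes, miR-451 red cells. The hippocampus and the amygdala serve memory and emotion, and the hippocampus is known as a region vulnerable to brain trauma. A count in bulk tissue reflects both how many cells of a type are present and how much of the miRNA each holds, and fewer cells of a type and less RNA per cell cannot be told apart.

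Library depth was not equal between the groups. Totals ran from 7074097 to 11870652 counts at 1 day and from 3096140 to 12523977 at 1 week, and the geometric mean total at 1 week was 0.694 times that at 1 day (permutation test, 2-sided, p = 0.0268, adjusted p = 0.0268 over 2 tests). The 4 lowest totals at 1 week, 3096140 to 3942375, all came from animals whose code in the library name carries no letter. The 6 animals at 1 week with such codes also included 2 with totals of 10947935 and 11012970. The other 9 animals at 1 week, and all 10 at 1 day, had codes with the letter U. No set of codes with one letter and one pair of leading digits held animals of both times, so what the codes mark and the time after injury cannot be told apart. The 15 animals at 1 week had 8 distinct codes before the hyphen and the 10 at 1 day had 10, and no label explains the codes. The let-7 family, the most abundant miRNAs here, took 68.3% to 74.5% of counts at 1 day and 69.3% to 83.9% at 1 week, a difference in mean share of 4.38 percentage points (permutation p = 0.00856, adjusted p = 0.0171). Among animals with the letter U the difference was 2.55 points (exact permutation test, p = 0.0325). Its share was 80.2% to 83.9% in the same 4 libraries of lowest total and between 69.3% and 76.8% in the other 11. Nothing in the labels says how animals were housed or processed together, so p-values measure the spread between these animals.

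Of 299 miRNA names with enough counts to test, 91 differed between 1 week and 1 day, which is 30.4% of those tested (edgeR quasi-likelihood test, Benjamini-Hochberg adjusted p under 0.05). At 1 week 37 were higher (12.4%) and 54 were lower (18.1%). Some names hold the same reads, among them miR-9, miR-9-1 and miR-9-2, and counted once the figures were 86 of 290 (29.7%), 35 higher (12.1%) and 51 lower (17.6%). The lists below count the same reads once and are read against these shares. Sizes were mostly modest. The median fold was 1.60 among the miRNAs that rose and 1.40 among those that fell, and 10 rose and 4 fell by 2-fold or more. Individual animals of the groups overlapped for every miRNA tested: for 0 of 299 (0%) did all 15 values at 1 week lie outside the range of the 10 at 1 day. The balance of directions depended on scaling. With RLE factors 42 were higher and 39 lower, with DESeq2 53 and 47, and with library totals alone 25 and 56, the last with a median log2 difference over all miRNAs of -0.19 in place of -0.06. None of the 91 changed sign under these scalings.

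How many miRNAs passed varied with the libraries that entered the fit, and the cause was not tested. Without the 4 under 4000000 counts, 0 of 299 passed in edgeR (82 at an unadjusted p under 0.05, smallest adjusted p = 0.0724), although all 91 held their sign, with a median size of 0.726 of the full value. When the sham and cyclosporine libraries also left the fit, 36 passed, 22 higher and 14 lower. Among animals whose code has the letter U, 9 at 1 week and 10 at 1 day and none of the 4 shallow libraries among them, 71 passed, 40 higher and 31 lower, and 64 of these were among the 91. Among codes beginning with 11, 4 against 5 animals, edgeR called 0 (44 had an unadjusted p under 0.05), and 89 of the 91 held their sign, with a median size of 0.817 of the full value. Limited to libraries with totals within the 1 day range, 5 against 10, 0 passed (44 at an unadjusted p under 0.05), and 90 of 91 had the same sign, with a median size of 0.620 of the full value. With the log10 total as a covariate 64 passed, 30 higher and 34 lower. Counts summed over animals that share a code left 43, 30 higher and 13 lower.

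The largest increases were in low to moderately abundant miRNAs, and they were carried by some animals more than others. miR-4332 ran from 1.03 to 9.90 CPM (median 4.44, n = 10) at 1 day and 2.74 to 146 CPM (median 14.9, n = 15) at 1 week, and was 6.54-fold higher (log2 2.71, SE 0.69, adjusted p = 0.00396). miR-10386 ran from 17.5 to 80.6 CPM (median 37.7, n = 10) and 31.9 to 1027 CPM (median 118, n = 15), 6.30-fold higher (log2 2.66, SE 0.74, adjusted p = 0.00605). In both, the 4 animals with the shallowest libraries held the 4 highest values, 10 and 11 of 15 animals lay above the highest 1 day animal, and 2 lay below the 1 day median. Both are names of the pig annotation. miR-193a-5p ran from 8.21 to 31.6 CPM at 1 day (median 20.2) and 18.4 to 113 CPM at 1 week (median 51.6), 2.80-fold higher (log2 1.48, SE 0.29, adjusted p = 0.000963). miR-92b-5p is the minor arm of the hairpin that makes the neural progenitor miRNA miR-92b-3p. Its values were 2.30 to 14.6 CPM at 1 day (median 6.26) and 5.09 to 50.5 CPM at 1 week (median 14.7), 2.72-fold higher (log2 1.44, SE 0.39, adjusted p = 0.00537), with 14 of 15 animals above the 1 day median.

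Next in size came the 3′ arms miR-885-3p, miR-769-3p and miR-139-3p. miR-885-3p ran from 26.2 to 85.8 CPM at 1 day (median 49.5) and 37.0 to 321 CPM at 1 week (median 112) and rose 2.62-fold (log2 1.39, SE 0.33, adjusted p = 0.00290). miR-769-3p ran from 23.1 to 66.9 CPM at 1 day (median 44.0) and 40.5 to 229 CPM at 1 week (median 85.1) and rose 2.49-fold (log2 1.31, SE 0.27, adjusted p = 0.00154), and 11 of 15 animals exceeded every 1 day animal. miR-139-3p, from a hairpin in an intron of the phosphodiesterase gene PDE2A, ran from 236 to 565 CPM at 1 day (median 391) and 354 to 1399.9 CPM at 1 week (median 824) and rose 2.05-fold (log2 1.04, SE 0.24, adjusted p = 0.00290). In each of these 3 the groups overlapped, with 2 animals at 1 week under the 1 day median. miR-296-3p, from the imprinted GNAS region, gave 200.2 to 604 CPM at 1 day (median 438) and 383 to 1341 CPM at 1 week (median 780.4) (log2 0.96, SE 0.23, adjusted p = 0.00290), with 12 of 15 animals above the 1 day median. miR-370, a member of the imprinted DLK1-DIO3 cluster of brain-enriched miRNAs, gave 9.14 to 20.2 CPM at 1 day (median 11.7) and 10.1 to 44.7 CPM at 1 week (median 22.2) (log2 0.88, SE 0.21, adjusted p = 0.00290).

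The abundant members of this set were miR-423-5p and miR-2366. miR-423-5p, a broadly expressed miRNA, ran from 343 to 1364 CPM at 1 day (median 826) and 562 to 3543 CPM at 1 week (median 1415) and rose 2.00-fold (log2 1.00, SE 0.29, adjusted p = 0.00760), with 8 of 15 animals above the 1 day maximum. miR-2366 ran from 376 to 866 CPM at 1 day (median 532) and 457 to 1853 CPM at 1 week (median 1075) (log2 0.81, SE 0.19, adjusted p = 0.00290), and 14 of 15 animals were above the 1 day median. miR-1307 ran from 60.5 to 206 CPM at 1 day (median 109.7) and 90.1 to 554 CPM at 1 week (median 222) (log2 1.02, SE 0.27, adjusted p = 0.00451). In 9 of the 12 largest increases the 4 shallow libraries held the 4 highest values at 1 week, and in 10 of 12 the 2 deep libraries with no letter held the 2 lowest.

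**Figure D1:**
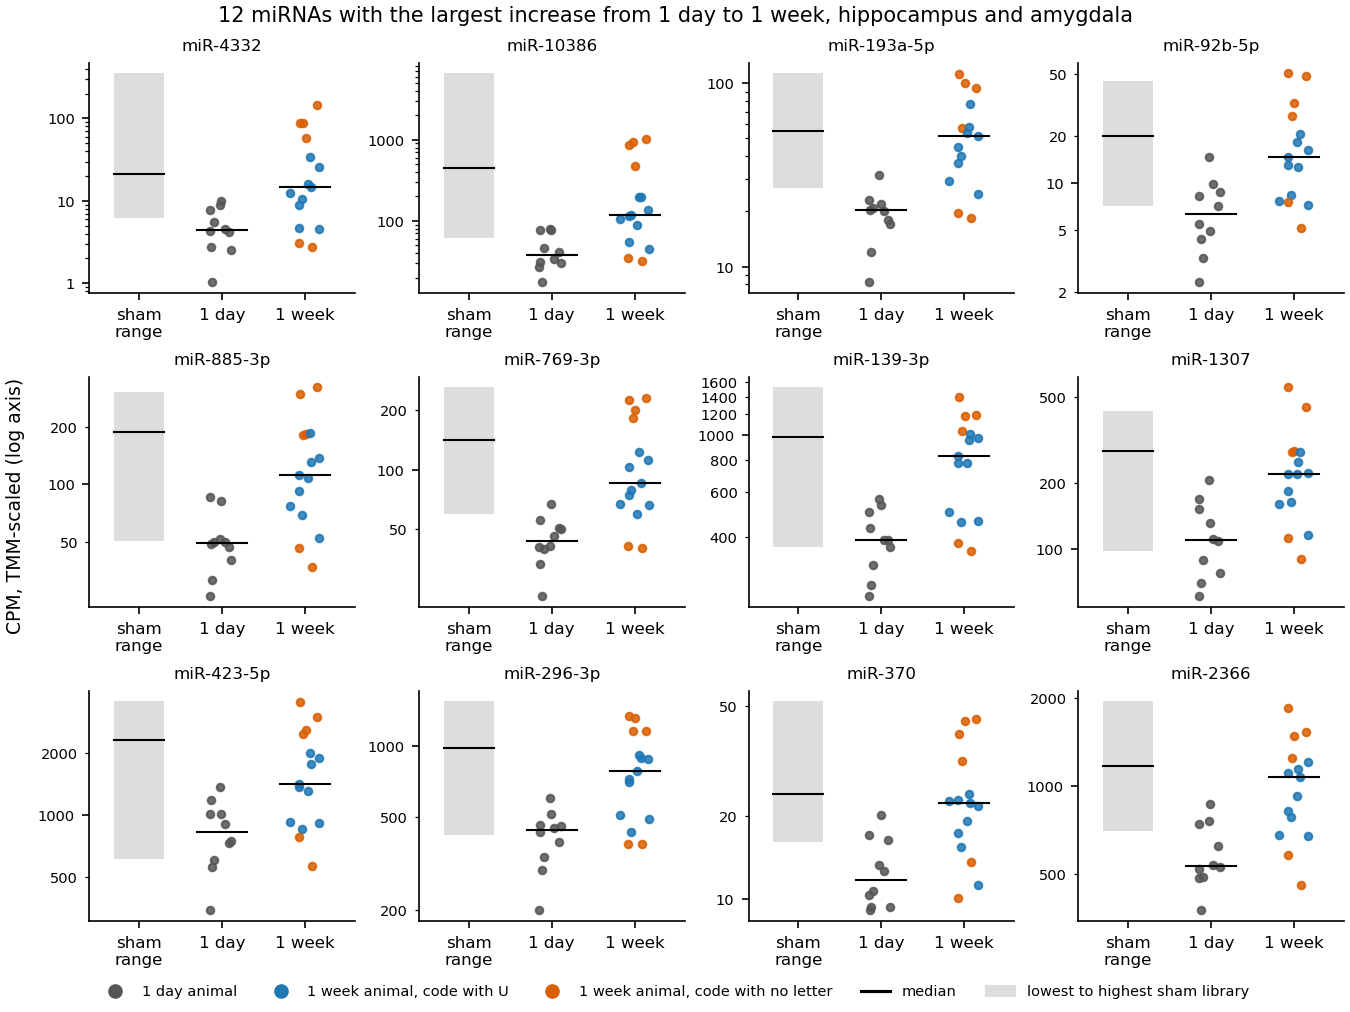
CPM of the 12 miRNAs with the largest increase on log axes, each point 1 animal at 1 day (grey, n = 10) or 1 week (blue for codes with the letter U, n = 9, orange for codes with no letter, n = 6), black lines medians, and grey bars the lowest to highest of 18 sham libraries. Between 8 and 11 of the 15 animals at 1 week lie above the highest animal at 1 day, and the single highest value in each of the 12 panels belongs to an animal with no letter.

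These increases moved with the library total among the 15 animals at 1 week. The correlation of log2 CPM (with 0.5 added) with log10 total was negative for all 12, with Pearson's r from -0.95 (miR-10386) to -0.79 (miR-139-3p) and Spearman's rho from -0.90 to -0.78. Over the 22 largest changes tested, the largest adjusted permutation p among these 12 was 0.00127 for r and 0.00146 for rho. The 22 were chosen by their difference between the times in these same libraries, and other miRNAs were not examined. These p-values therefore cannot show whether the relation is particular to them, and they treat animals that share a code as independent. Without the 2 animals farthest from the median total r was from -0.94 to -0.74. Within the 9 animals with the letter U r ran from -0.94 to -0.38, and 1 of 12 passed (exact permutation test, adjusted p = 0.0195). Within the 6 with no letter it ran from -0.99 to -0.91, and none of the 12 passed (exact permutation test, smallest adjusted p = 0.0567). Among the 10 animals at 1 day all 12 were negative again, from -0.86 to -0.04, and 3 passed (permutation test, adjusted over 22). The part of depth in the difference between the times was not separated further. With the total as a covariate the 12 measured log2 0.63 to 1.22 and 10 passed. Without the 4 shallow libraries, in the fit of 1 week and 1 day libraries alone, they measured log2 0.55 to 1.33 and 9 passed. miR-10386 went from log2 2.66 to 0.94 with the covariate (adjusted p = 0.0513), and miR-423-5p was at 0.67 (adjusted p = 0.0630).

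**Figure D2:**
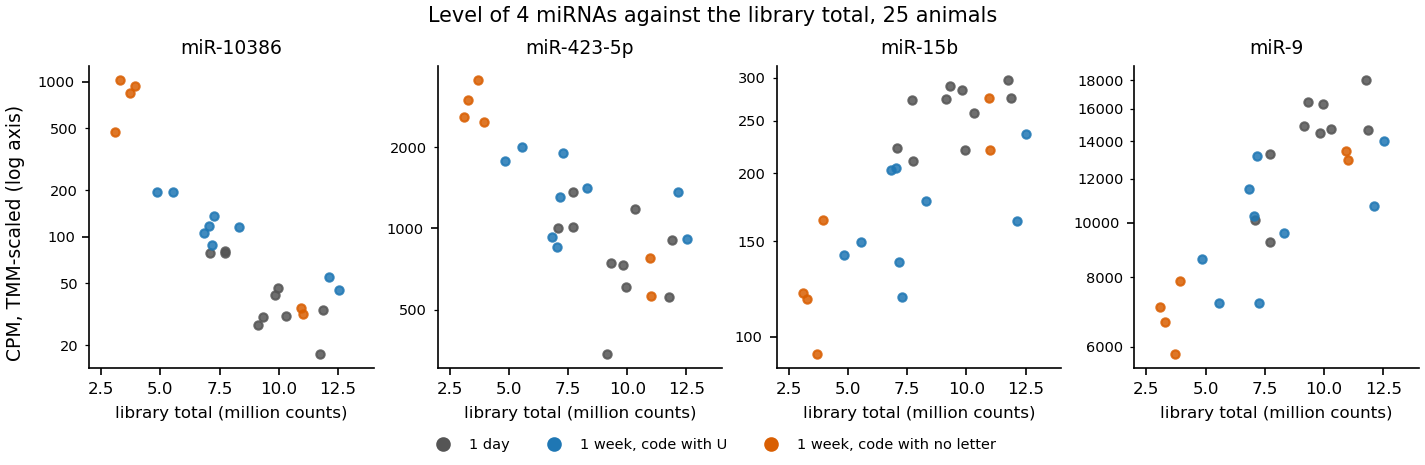
CPM on log axes against the library total for miR-10386, miR-423-5p, miR-15b and miR-9, each point 1 of the 25 animals (grey 1 day, blue 1 week with the letter U, orange 1 week with no letter). miR-10386 and miR-423-5p lie highest in libraries under 4000000 counts, and the lowest value of miR-15b and of miR-9 is in one of those libraries.

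Among miRNAs with a mean of at least 10 CPM in either group, the 10 largest decreases measured log2 -0.82 to -0.54. Scarcer miRNAs that fell reached log2 -1.65 (miR-451). miR-15b, of the miR-15 and miR-16 family that targets BCL2 and cell cycle genes, ran from 211 to 297 CPM at 1 day (median 273) and 93.0 to 276 CPM at 1 week (median 163), a 1.55-fold fall (log2 -0.63, SE 0.15, adjusted p = 0.00290). 12 of 15 animals at 1 week lay below the lowest 1 day animal, and 1 lay above the 1 day median. miR-9, which acts in neural progenitors and in neurons, was the most abundant of these and ran from 9255 to 18009.7 CPM at 1 day (median 14702) and 5828 to 14014 CPM at 1 week (median 9596) and fell in level by 1.46-fold (log2 -0.55, SE 0.15, adjusted p = 0.00506). All 15 animals at 1 week were under the 1 day median, and 7 were under the 1 day minimum. The names miR-9, miR-9-1 and miR-9-2 took 3 of the 12 places in this rule with the same reads, so 10 distinct miRNAs are described.

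miR-363, of the X-linked relative of the miR-17-92 cluster, fell most among miRNAs with a mean of at least 10 CPM in either group, and was at 4.77 to 18.0 CPM at 1 day (median 10.1) and 1.64 to 13.1 CPM at 1 week (median 5.85) (log2 -0.82, SE 0.28, adjusted p = 0.0218). miR-17-3p, the minor arm of the founding member of the miR-17-92 cluster, ran from 19.1 to 36.3 CPM at 1 day (median 26.1) and 6.56 to 29.7 CPM at 1 week (median 17.5) (log2 -0.68, SE 0.20, adjusted p = 0.00713), and 10 of 15 animals were below the 1 day range. miR-374a-5p, from the X-linked FTX locus, ran from 24.3 to 59.0 CPM at 1 day (median 39.0) and 10.3 to 46.8 CPM at 1 week (median 23.6) (log2 -0.64, SE 0.18, adjusted p = 0.00680). For each of these 3, 13 or 14 of 15 animals lay under the 1 day median while the ranges overlapped. miR-450c-3p, of an X-linked cluster with miR-424 and miR-503, gave 14.9 to 25.4 CPM at 1 day (median 19.0) and 5.33 to 21.3 CPM at 1 week (median 11.7) (log2 -0.63, SE 0.15, adjusted p = 0.00290), with 11 of 15 under the 1 day minimum. miR-455-3p, from an intron of the collagen gene COL27A1, gave 13.3 to 22.0 CPM at 1 day (median 15.4) and 5.54 to 20.0 CPM at 1 week (median 9.02) (log2 -0.59, SE 0.17, adjusted p = 0.00632), also with 11 of 15 under it. miR-574-3p gave 12.6 to 24.5 CPM at 1 day (median 19.2) and 7.54 to 18.0 CPM at 1 week (median 15.4) (log2 -0.54, SE 0.15, adjusted p = 0.00506), and no animal at 1 week was above the 1 day median. miR-129a-3p (log2 -0.64, SE 0.24, adjusted p = 0.0374) and miR-22-5p (log2 -0.56, SE 0.21, adjusted p = 0.0368) depended most on single animals: with 1 of the 25 animals left out at a time they passed in 14 and 15 of 25 fits.

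**Figure D3:**
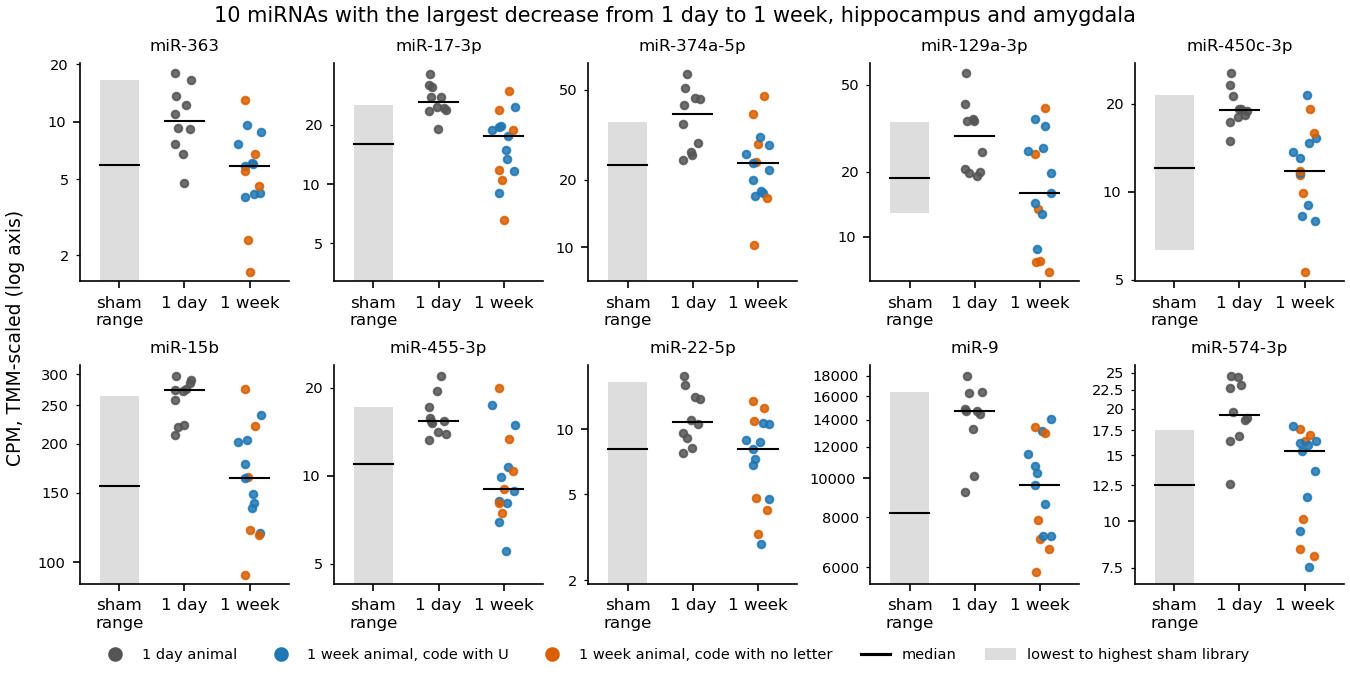
CPM of the 10 miRNAs with the largest decrease on log axes, with points, colours, lines and bars as in the plot of increases, and grey bars that reach the foot of a panel continuing to lower sham values. Between 6 and 12 of the 15 animals at 1 week lie below the lowest animal at 1 day.

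The decreases moved with the total in the opposite direction. Among the 15 animals at 1 week r was positive for all 10, from 0.36 (miR-450c-3p) to 0.83 (miR-9), and rho from 0.23 to 0.81. Of these, 8 passed for r and 5 for rho (permutation test, adjusted over 22). Without the 2 farthest totals r was 0.29 to 0.79. It was -0.10 to 0.58 within the letter U animals, 0.50 to 0.96 within those with no letter, and -0.30 to 0.80 at 1 day. None passed within either letter group (exact permutation test, smallest adjusted p = 0.318 and 0.0567). With the total as a covariate the 10 measured log2 -0.72 to -0.45 and 7 passed. Without the 4 shallow libraries, in the fit of 1 week and 1 day libraries, they measured -0.63 to -0.36 and 4 passed.

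Of 15 neuronal miRNAs tested, 2 rose and 3 fell. The share called, 33.3%, was near the 29.7% of all miRNAs, and the median log2 difference was -0.10 beside -0.06 over all miRNAs counted once. miR-9 and miR-129a-3p fell as above. miR-137, which regulates neuronal maturation, fell from 1616 ± 457 (SD, n = 10) to 1148 ± 328 CPM (n = 15; log2 -0.49, SE 0.13, adjusted p = 0.00506). miR-129a-5p rose from 2239.9 ± 349.7 to 3099.5 ± 733 CPM (log2 0.47, SE 0.13, adjusted p = 0.00632), and miR-490 from 22.1 ± 4.43 to 30.0 ± 7.34 CPM (log2 0.44, adjusted p = 0.0110). miR-124a, the most neuron-specific of them, was at 4788 to 9903 CPM at 1 day (median 6411) and 5938 to 12970.1 CPM at 1 week (median 7771) and did not pass (log2 0.27, adjusted p = 0.0666), although 14 of 15 animals were above the 1 day median. With library totals alone as scaling the list had 0 higher and 4 lower. The activity-regulated neuronal miRNAs had 0 of 4 higher and 0 lower, against 1 higher with DESeq2. Of the pair made from one transcript that neuronal activity induces, miR-132 was at 106 ± 20.7 and 112 ± 17.9 CPM (log2 0.08, adjusted p = 0.618) and miR-212 at 12.0 ± 2.74 and 8.04 ± 3.80 (log2 -0.53, adjusted p = 0.0966).

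The glial lists had shares called near the 29.7% of all miRNAs, 28.6% for oligodendrocyte and 30% for astrocyte miRNAs. Of 7 oligodendrocyte and myelin miRNAs 0 rose and 2 fell, and those 2 were miR-151-3p (log2 -0.21, adjusted p = 0.0132) and miR-27a (log2 -0.45, adjusted p = 0.0477). miR-219b-3p did not pass, at 197 ± 30.6 against 211 ± 53.9 CPM (log2 0.10, adjusted p = 0.474). Nor did miR-338, which drives oligodendrocyte differentiation, at 642 ± 109 against 733 ± 209 CPM (log2 0.19, adjusted p = 0.257). The scarce miR-219a, at means of 1.86 and 2.45 CPM, did not pass either (log2 0.39, adjusted p = 0.240). Of 10 astrocyte-associated miRNAs 0 rose and 3 fell: miR-23b from 304 ± 54.2 to 215 ± 45.3 CPM (log2 -0.50, SE 0.13, adjusted p = 0.00336), with all 15 animals under the 1 day median, and both arms of its neighbour miR-27b. miR-26a, the most abundant of that list, was at 24435 ± 4534 and 21652 ± 3085 CPM (log2 -0.17, adjusted p = 0.115).

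The microglial and inflammatory list had 1 of 15 higher and 4 lower, 33.3% called beside 29.7% of all. miR-22-3p rose, and was at 224 to 316 CPM at 1 day (median 251) and 225 to 447 CPM at 1 week (median 335) (log2 0.38, SE 0.09, adjusted p = 0.00329), with 10 of 15 animals above the 1 day maximum. miR-155-5p, induced in activated macrophages and microglia, was lower at 1 week, at 196 to 283 CPM at 1 day (median 231) and 154 to 259 CPM at 1 week (median 198) (log2 -0.23, SE 0.09, adjusted p = 0.0364), a small difference with overlapping ranges. The wider inflammation panel did not pass: miR-21-5p (log2 -0.24, adjusted p = 0.151), miR-21-3p (log2 0.16, adjusted p = 0.657), miR-146a-5p (log2 0.03, adjusted p = 0.954) and miR-146b (log2 -0.14, adjusted p = 0.725). miR-146a-5p was scarce, at 0.416 to 3.20 CPM at 1 day (median 1.33) and 0.225 to 4.18 CPM at 1 week (median 1.39). The hypoxia-induced miR-210 was at 46.2 ± 9.02 and 48.0 ± 12.2 CPM (log2 0.06, adjusted p = 0.752). With RLE factors the list had 1 higher and 1 lower.

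Among miRNAs of blood, the red cell miRNA miR-451 fell most. It was at 0.126 to 14.1 CPM at 1 day (median 4.30) and 0 to 4.94 CPM at 1 week (median 1.20) (log2 -1.65, SE 0.51, adjusted p = 0.0126), with 14 of 15 animals under the 1 day median. Its neighbour miR-144 was at 1.43 ± 1.22 and 0.539 ± 0.641 CPM and did not pass (log2 -1.52, adjusted p = 0.0578), and miR-486, also abundant in red cells, was at 64.0 to 231 CPM at 1 day (median 155) and 102 to 238 CPM at 1 week (median 169.8) (log2 0.20, adjusted p = 0.395). The summed red cell markers ran from 67.4 to 235.8 CPM at 1 day and 102.5 to 240.7 at 1 week, with medians of 158 and 172, nearly all of it miR-486. In the leukocyte list 0 of 6 rose and 1 fell, 16.7% called beside 29.7% of all, and the one that fell was miR-181a, which neurons also express. miR-142-3p was at 10.7 to 46.4 CPM at 1 day (median 25.0) and 24.8 to 62.2 CPM at 1 week (median 35.8) (log2 0.43, adjusted p = 0.0911), miR-142-5p gave log2 -0.26, adjusted p = 0.210, miR-150 log2 -0.26, adjusted p = 0.112 and the myeloid miR-223 log2 -0.30, adjusted p = 0.224.

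Vascular miRNAs included 0 of 19 higher and 4 lower, 21.1% called beside 29.7% of all, with a median of -0.28. Both arms of the endothelial miR-126 fell: miR-126-3p, at 4228 to 6257 CPM at 1 day (median 4918) and 2826 to 5480.2 CPM at 1 week (median 4002) (log2 -0.32, SE 0.09, adjusted p = 0.00632) and miR-126-5p from 538 ± 131 to 434 ± 76.0 CPM (log2 -0.31, adjusted p = 0.0368). For miR-126-3p 8 of 15 animals were below the 1 day range. The others that fell were miR-199a-3p, a miRNA of mesenchymal and mural cells (log2 -0.45, adjusted p = 0.0252), and miR-221-5p (log2 -0.53, adjusted p = 0.0458). The smooth muscle markers summed to 2108.7 to 6013.2 CPM at 1 day and 1941.8 to 6234.3 at 1 week.

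**Figure D4:**
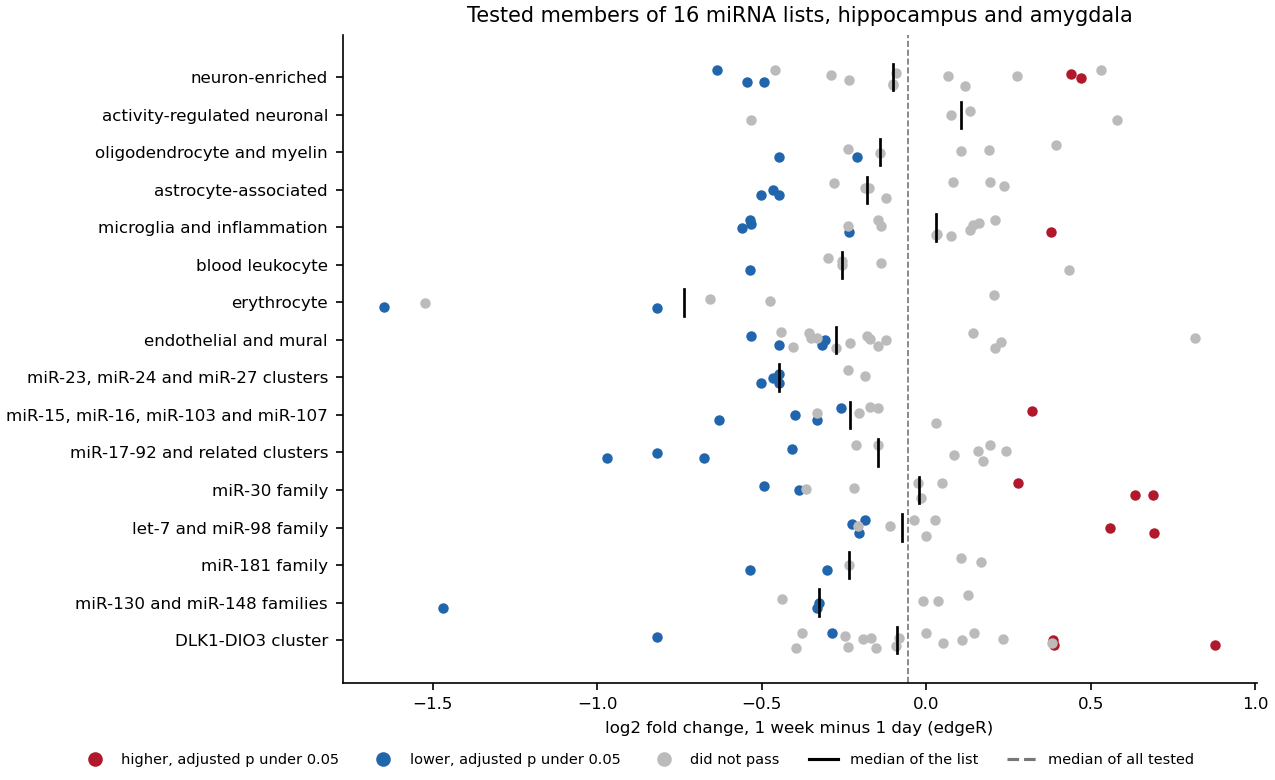
edgeR log2 fold change, 1 week minus 1 day, of the tested members of 16 lists, each point 1 miRNA, coloured by whether it passed at an adjusted p of 0.05, with the median of each list (black) and of all tested (dashed). Points that passed lie on both sides in the neuronal, microglial, let-7, miR-30 and DLK1-DIO3 lists and in that of miR-15, miR-16, miR-103 and miR-107. None passed in the activity-regulated list, and in all other lists shown they lie only on the lower side.

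Of the lists, the miR-23, miR-24 and miR-27 clusters had the largest share called, 66.7% beside 29.7% of all, with 4 of 6 lower and 0 higher (median -0.45). The 4 included both arms of miR-27b and its neighbour miR-23b, so they are not separate evidence. With RLE factors, DESeq2 or the log10 total as a covariate 3 of 6 were lower, and with letter U codes 2 were. Without the 4 shallow libraries, in the fit of all groups, 0 were. miR-27b-3p ran from 119.6 to 180.3 CPM at 1 day (median 138) and 74.0 to 139 CPM at 1 week (median 104) (log2 -0.45, SE 0.13, adjusted p = 0.00605), miR-27b-5p gave log2 -0.47, adjusted p = 0.0130, and miR-24-3p, made in both clusters, did not pass (log2 -0.19, adjusted p = 0.101). In the family of miR-15, miR-16, miR-103 and miR-107, 4 of 10 fell, beside 17.6% of all, and 1 rose. miR-16 ran from 5414 to 7878 CPM at 1 day (median 6533) and 4189.5 to 7239.9 CPM at 1 week (median 5264) (log2 -0.33, SE 0.08, adjusted p = 0.00290), and 9 of 15 animals were under the 1 day minimum. miR-107, from an intron of the pantothenate kinase gene PANK1, ran from 1094 to 1389 CPM at 1 day (median 1216) and 592 to 1401 CPM at 1 week (median 899) (log2 -0.40, SE 0.12, adjusted p = 0.00826), 12 of 15 under the 1 day minimum and 1 above the maximum. miR-103 fell by less (log2 -0.26, adjusted p = 0.0218), and miR-503 was the member that rose, at 126 to 204 CPM at 1 day (median 164) and 172 to 321 CPM at 1 week (median 199) (log2 0.32, adjusted p = 0.0156), with all 15 animals above the 1 day median. The miR-17-92 and related clusters had 4 of 11 lower and 0 higher, 36.4% called beside 29.7% of all. Those that fell were miR-17-3p, miR-363, miR-20a-3p (log2 -0.97, adjusted p = 0.00290) and miR-92a (log2 -0.41, adjusted p = 0.0252).

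Of 10 tested members of the let-7 family 2 rose, 3 fell and 5 did not pass, 50% called beside 29.7% of all. let-7e ran from 26834 to 38149 CPM at 1 day (median 32101) and 30659 to 88602 CPM at 1 week (median 48562), 1.62-fold higher (log2 0.69, SE 0.16, adjusted p = 0.00290), and 11 of 15 animals exceeded the 1 day maximum. let-7c, the most abundant miRNA named here, ran from 190344 to 298736 CPM at 1 day (median 242813) and 215410.0 to 616851 CPM at 1 week (median 314765) (log2 0.56, SE 0.15, adjusted p = 0.00506). let-7d-5p (log2 -0.20, adjusted p = 0.00290), let-7g (log2 -0.23, adjusted p = 0.0249) and let-7i-5p (log2 -0.19, adjusted p = 0.0492) were lower, the last named after its values were seen. With library totals alone 2 rose and 5 fell. Without the 4 shallow libraries, in the fit of all groups, let-7e measured log2 0.39 (adjusted p = 0.0938) and let-7c 0.30 (adjusted p = 0.174). No member of the family passed in that fit. Members of this family differ by few bases and reads could be split between them, which makes each value uncertain.

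The miR-30 family had 3 of 10 higher, 2 lower and 5 that did not pass, 50% called beside 29.7% of all. The 3′ arms miR-30b-3p, at 76.8 to 110.3 CPM at 1 day (median 96.3) and 90.8 to 262 CPM at 1 week (median 143) (log2 0.63, SE 0.16, adjusted p = 0.00292), and miR-30c-1-3p, at 57.4 to 86.9 CPM at 1 day (median 79.5) and 70.3 to 210.4 CPM at 1 week (median 112) (log2 0.69, SE 0.18, adjusted p = 0.00506), rose. The 5′ arms miR-30a-5p, from 4343 ± 739 to 3322 ± 719 CPM (log2 -0.39, adjusted p = 0.00713), and miR-30c-5p, from 158 ± 30.8 to 112 ± 31.1 CPM (log2 -0.49, adjusted p = 0.0107), fell. Without the 4 shallow libraries, in the fit of all groups, miR-30b-3p measured log2 0.37, miR-30c-1-3p 0.39, miR-30a-5p -0.26 and miR-30c-5p -0.32, and none passed. The imprinted DLK1-DIO3 cluster had 3 of 20 higher and 2 lower, 25% called beside 29.7% of all. Besides miR-370, miR-382 rose, at 3085 to 4296 CPM at 1 day (median 3823) and 3297 to 6234 CPM at 1 week (median 4709) (log2 0.39, SE 0.09, adjusted p = 0.00290), with 12 of 15 animals above the 1 day maximum, and miR-432-5p rose, at 3428 to 4845 CPM at 1 day (median 4194) and 4041 to 7165 CPM at 1 week (median 5824) (log2 0.39, SE 0.10, adjusted p = 0.00336). miR-369 fell from 7.82 ± 2.79 to 4.33 ± 1.97 CPM (log2 -0.82, adjusted p = 0.00506).

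In the miR-181 family 2 of 5 fell and 0 rose, 40% called beside 29.7% of all. miR-181a ran from 2782 to 8498 CPM at 1 day (median 3684) and 1700.0 to 4429 CPM at 1 week (median 2739) (log2 -0.54, SE 0.15, adjusted p = 0.00632), its 1 day maximum set by 1 animal far above the rest, and miR-181c gave log2 -0.30, adjusted p = 0.0458. Of the miR-130 and miR-148 families 3 of 7 fell and 0 rose, 42.9% called. Both arms of miR-130b were lower, miR-130b-5p at 3.80 to 13.0 CPM at 1 day (median 5.32) and 0 to 4.94 CPM at 1 week (median 1.77) (log2 -1.47, SE 0.41, adjusted p = 0.00578), with 13 of 15 under the 1 day minimum, and miR-130b-3p by less (log2 -0.33, adjusted p = 0.00713). miR-130a also fell (log2 -0.33, adjusted p = 0.0299). The group of miR-374, miR-545 and miR-505, which also holds miR-421, had 3 of 7 lower and 0 higher, 42.9% called beside 29.7% of all. Those lower were miR-374a-5p, miR-374b-5p (log2 -0.66, adjusted p = 0.0143) and miR-421-3p (log2 -0.22, adjusted p = 0.0251). miR-505 (log2 -0.45, adjusted p = 0.0666) and miR-545-5p (log2 0.43, adjusted p = 0.115) did not pass. No member passed among 3 of the miR-29 family (median 0.19) or 6 of the miR-99, miR-100 and miR-125 group (median -0.07). With RLE factors and with DESeq2 1 of the miR-29 family passed as higher. Lists by theme read the same members again: p53 and cell death had 4 of 9 lower and 0 higher, and miRNAs reported in traumatic brain injury 12 of 30 lower and 1 higher (44.4% and 43.3% called beside 29.7% of all, median of the latter -0.26).

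Both arms were tested for 62 pairs of products from one hairpin. Both arms rose in 2 pairs and both fell in 3. One arm alone rose in 11 and one alone fell in 17, the arms moved in opposite directions in 4, and neither passed in 25. Of all miRNAs counted once 29.7% were called, 12.1% higher and 17.6% lower. Whether the counts of pairs depart from those shares was not tested. The opposite pairs were miR-129a-5p (up) with miR-129a-3p (down), miR-22-3p (up) with miR-22-5p (down), and miR-30c-5p (down) with both miR-30c-1-3p and miR-30c-3p (up, the latter log2 0.28, adjusted p = 0.0492). The pairs that rose on both sides were miR-423, with miR-423-3p from 31.7 ± 9.74 to 48.6 ± 17.0 CPM (log2 0.61, adjusted p = 0.0143), and miR-671 (log2 0.70 and log2 0.69), the latter chosen after its values were seen. For miR-139 the major arm miR-139-5p did not pass, at 11252 ± 888 and 10649.9 ± 1869 CPM (log2 -0.08, adjusted p = 0.432) while miR-139-3p rose as above. For miR-769 the 5′ arm went from 227 ± 22.7 to 259 ± 20.8 CPM (log2 0.19, adjusted p = 0.0601), and for miR-885 from 28.6 ± 7.58 to 22.0 ± 5.98 (log2 -0.36, adjusted p = 0.0791). Whether arms of a pair differ from each other was not tested.

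Neighbouring hairpins were grouped by position. The RefSeq gene table of the Sscrofa11.1 assembly matched 314 of 408 hairpin names, and 30 groups of neighbours with different members and starts at most 10000 bases apart had 2 or more tested miRNAs. Of these groups 15 held decreases only, 4 increases only, 2 both and 9 none. Their 91 distinct miRNAs had 30 called, 33% beside 29.7% of all. miR-15b and miR-16 fell together, as did miR-23b and both arms of miR-27b. let-7c rose beside miR-99a-5p (log2 -0.18, adjusted p = 0.193), and let-7e rose beside miR-125a (log2 0.08, adjusted p = 0.425) and miR-99b (log2 0.01, adjusted p = 0.920), none of which passed. miR-125a and miR-99b are given for their position and were chosen after their values were seen. In the X-linked group miR-450c-3p fell, and miR-542-5p, chosen after its values were seen, rose (log2 0.66, adjusted p = 0.00578). In the group of miR-17-92, miR-17-3p, miR-20a-3p and miR-92a fell while miR-17-5p (log2 0.16, adjusted p = 0.345) and miR-20a-5p (log2 -0.21, adjusted p = 0.0944) did not pass.

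The sham libraries of the region gave a reference level for these miRNAs. The comparisons share the 1 week or 1 day libraries, so their values are set side by side only. Every 1 week animal with no letter shared its code before the hyphen with a sham animal. No sham animal shared both the letter and the pair of leading digits with an animal at 1 day. What the codes mark therefore cannot be told apart from the difference of 1 day from sham, or from the nearness of 1 week to sham. miR-10386 had a median of 444 CPM in 18 sham libraries, 37.7 at 1 day and 118 at 1 week. miR-423-5p had 2326, 826 and 1415 CPM, and miR-139-3p 979, 391 and 824 CPM. miR-15b had 156, 273 and 163 CPM, and miR-9 8189, 14702 and 9596. For the 12 largest increases the edgeR log2 difference from sham was -4.79 to -0.99 at 1 day and -2.14 to -0.16 at 1 week, and for the 10 largest decreases 0.55 to 0.79 at 1 day and -0.04 to 0.17 at 1 week. All 22 passed at 1 day, where 48.5% of all 299 did, and none at 1 week (smallest adjusted p = 0.084), where 0.334% of all did. The 22 were chosen by large differences from these same 1 day libraries, which favours passing against sham at 1 day. Their count beside the share of all is therefore no separate evidence. A p that misses the threshold does not show that values at 1 week equal those of sham. Between 8 and 15 of the 15 animals at 1 week lay within the sham range for each. Sham libraries were shallower still, with totals from 409637 to 10115115 and a median of 5500970.0.

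The frontal lobe of the same 25 animals was set against this region to ask whether the difference between the times was its own. No difference in change between the regions passed: 0 of 299 (0%) in edgeR with the animal as a block, 22 had an unadjusted p under 0.05, and the smallest adjusted p was 0.658. limma voom also gave 0 and DESeq2 gave 6. In the frontal lobe the 12 largest increases measured log2 0.96 to 3.53, and all 12 passed there, beside 22.5% of all 293 tested there that were higher. The 10 largest decreases measured -0.66 to -0.09, and 7 passed, beside 16.4% that were lower. The smallest p values of the test of the difference belonged to miR-708-5p, log2 -0.09 here and 0.29 in the frontal lobe, and miR-450c-3p, -0.63 and -0.09. The next were miR-135, -0.24 and -0.80, miR-139-3p, 1.04 and 1.65, and miR-381-5p, 0.23 and -0.22. Each of these had an adjusted p of 0.658 for the difference. The 6 that DESeq2 called were miR-708-5p and 5 miRNAs of epithelium, miR-183, miR-182, miR-429, miR-141 and miR-200b, with differences between the regions of log2 4.01 to 6.77. Fitted within each region, their changes were closer, with log2 -0.48 here and -1.09 in the frontal lobe for miR-183, -0.66 and -1.10 for miR-182 and -1.07 and -1.14 for miR-429. Of these, miR-182 had the highest mean here, 6.46 CPM at 1 day, miR-141 and miR-200b were too scarce here to test within the region, and edgeR gave miR-183 log2 4.02 (adjusted p = 0.658). Frontal and hippocampal libraries come from the same animals, so the regions are not independent evidence for a difference between the times.

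**Figure D5:**
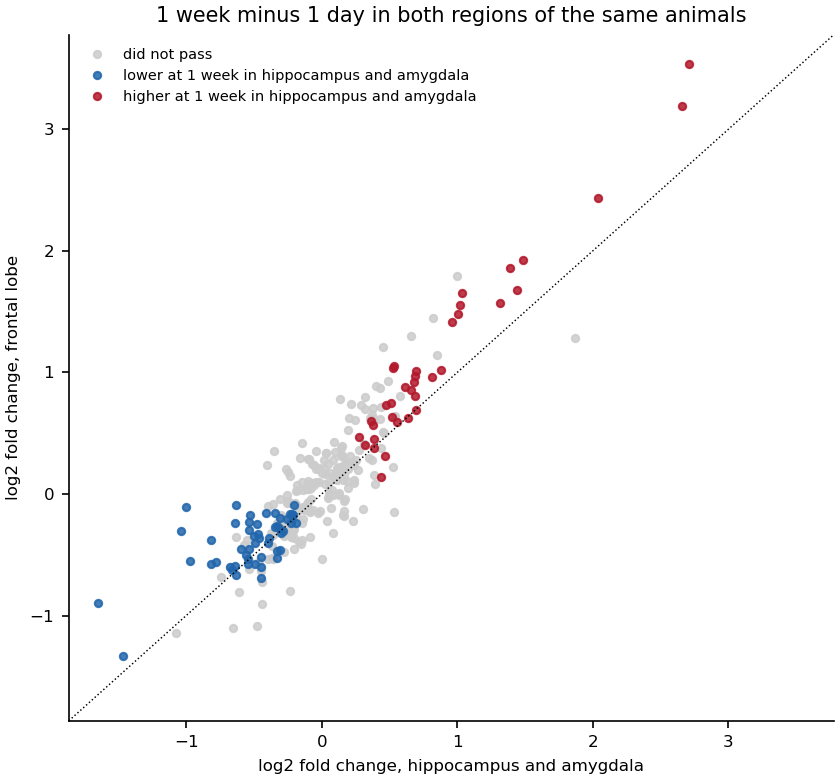
edgeR log2 fold change, 1 week minus 1 day, in the frontal lobe (vertical) against the hippocampus and amygdala (horizontal), each point 1 of 280 miRNAs, coloured by its call in the hippocampus and amygdala, with the dotted line marking equal change. miR-4332 and miR-10386 lie at the upper right, at 2.71 and 2.66 here and 3.53 and 3.19 in the frontal lobe.

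Markers of the labelled tissue were present in every library. The summed neuronal markers ran from 35694.6 to 42281.3 CPM at 1 day and 32501.9 to 41138.9 at 1 week, oligodendrocyte markers from 651.8 to 1020.3 and 611.6 to 1571.1, and endothelial markers from 4637.1 to 7059.2 and 3224.0 to 5974.6. Choroid plexus and epithelial markers varied widely in both groups, from 230.1 to 2462.6 CPM at 1 day and 231.4 to 2218.1 at 1 week, with 6 of 9 names passing the filter on low counts. Of those, miR-204, abundant in choroid plexus, was at 633 ± 469 and 396 ± 388 CPM (log2 -0.68, adjusted p = 0.239). miR-205, of stratified epithelium, was near 0 in every group, and 10 of 25 libraries had no count of miR-141. The skeletal muscle list ran from 69.2 to 197.9 CPM and 71.5 to 159.3, and miR-133a-5p was at 0 in all 25. Its members did not move together. miR-206 was higher at 1 week (log2 0.68, adjusted p = 0.0106), but measured log2 0.42 without the 4 shallow libraries (adjusted p = 0.176). miR-1 (log2 -0.25, adjusted p = 0.313) and miR-133a-3p (log2 -0.40, adjusted p = 0.298) did not pass. The liver miRNA miR-122-5p was at 27.7 to 67.5 CPM and 26.1 to 80.3. Their part in the differences above was not tested.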

How the data were processed

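Small RNA libraries of 25 hippocampus and amygdala samples, 15 at 1 week and 10 at 1 day, were compared, with 18 sham and 10 cyclosporine libraries of the region in the same fit. The deposited values were raw counts per miRNA entry, 1 column per library. Reads were trimmed with Trimmomatic 0.39 and cutadapt 1.9.1, per the submitters' processing notes. How reads were aligned, annotated, counted or collapsed was not given in the sources used here. Columns were matched to samples by title. Names with several entries kept the entry with the highest total. The members and lists were chosen with earlier results of these data known.

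Counts were tested with edgeR 4.0.16 in R 4.3.3 (TMM factors, filterByExpr with a minimum count of 10, robust quasi-likelihood, Benjamini-Hochberg adjusted p under 0.05). CPM used TMM-scaled totals. The test of the difference between regions held the animal as a block. The regions were paired by the animal code that both libraries carry. Deviations from group means of the paired libraries correlated at a median of 0.25 over 25 animals (-0.41 to 0.59, 19 over 0.1). Libraries of different animals were not compared in this way, so the correlations do not test the pairing. Single values were compared by 2-sided permutation tests with 100000 resamples, exact where a group had fewer than 10. DESeq2 1.42.0, limma 3.58.1 and other scalings, filters and sample sets were alternatives. Within the 1 week and within the 1 day libraries of this region, no pair was 1 library deposited again. The most similar pair at 1 week had a chi-square of 10674.6 on 297 degrees of freedom. Pairs across the times, and pairs with sham, cyclosporine or frontal libraries, were not checked for repeats.

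The miRNAs named were the 12 largest increases and 12 largest decreases among those passing with a mean of at least 10 CPM in either group, a panel of injury and cell type miRNAs, for each list the 4 smallest p values and the most abundant member, the 5 smallest p values between regions, and other arms of these. On simulated counts for 298 names the test of the times recovered 26 of 30 miRNAs changed 2-fold and 19 of 30 changed 1.5-fold, and called 1 of 238 unchanged. The simulated libraries were drawn independently, with no relation of level to library total and no shared codes. They therefore do not give the rate of false calls in the real libraries. No mature sequences were used here.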

Additional observations from a re-analysis of the deposited data

Results flagged for a closer look

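For 10 of 104 named miRNAs examined in the same 10 animals at 1 day, 1 animal stood far from the rest. Its gap to the nearest other was over 0.466 of the range of the 10 values. That limit flags about 1 in 20 sets of independent, normally distributed values, so the rate is no baseline for these levels. Of the 10 flags, 8 came from the same library, 1 day replicate 10, and the levels are not independent of each other. In it miR-26a was at 35468 CPM, miR-181a at 8498 CPM, miR-150 at 135.7 CPM, miR-181c at 378.4 CPM and miR-181d-5p at 330.4 CPM. miR-99a-5p was at 5720.1 CPM there, miR-100 at 4448 CPM and miR-130b-5p at 13.0 CPM. The other 2 came from 1 day replicate 2, with miR-146b at 20.1 CPM and miR-182 at 25.3 CPM. Without 1 day replicate 10 the test of the times called 87 miRNAs, and without 1 day replicate 2 it called 80, against 91 with all animals.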

How the results depend on the processing

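The count of 91 (37 higher, 54 lower) stayed within 1.5 times under other scalings, DESeq2 (100) and limma voom (92). The lower count was 29 with no filter on low counts, 34 with the log10 total as a covariate, 31 with codes of the letter U and 28 with counts thinned to the lowest total. The higher count was 69 with deposited entries unmerged. Counts summed per shared code gave 43, with 13 lower. Codes beginning 11, and totals within the 1 day range, each gave 0 called, 0 higher and 0 lower. Leaving out the 1 week libraries under 4000000 counts gave 0, 0 and 0, or 36, 22 and 14 with 1 week and 1 day libraries only. These depth settings were chosen after seeing the data, and the cause was not tested. With 1 animal left out, 76 to 109 passed, 33 to 51 higher and 31 to 65 lower, the lowest of these without 1 week replicate 12, and 61 of the 91 passed in every such fit. In the codes beginning 11 miR-181a (log2 0.0133) and miR-92a (0.0611) changed sign, and within the 1 day totals miR-421-3p did (0.0181). Sign changes of differences passing in neither fit were not counted. For the difference between regions, the fit with no replicate block called 0, as did the fit with the animal as a block (8 and 22 at an unadjusted p under 0.05), and DESeq2 called 6. The ratio of totals was 0.725 in codes beginning 11 and 0.814 with the letter U, and the let-7 difference was 4.49 points in codes beginning 11, none of which passed. With the letter U the let-7 difference was 2.55 points (exact permutation test, p = 0.0325). Planned sequence features were not run. Of miRNAs with a mean under 10 CPM 13.3% were called, against 40.8% of the most abundant, and the part of depth in this was not tested.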
